A study of Mus musculus with 12 samples.

Results

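The imprinted growth genes are 10 named genes, Nnat, H19, Igf2, Peg3, Dlk1, Meg3, Mest, Grb10, Plagl1 and Cdkn1c, chosen by name and followed across the early mouse heart. Total RNA was measured on bead arrays in 2 dissected regions of the heart tube, the atrioventricular canal (AVC), where the endocardial cushions that precede the valves form, and the primary ventricle, labelled LV. The 12 arrays make 4 groups of 3: AVC at embryonic day 10 (AVC E10), AVC at day 9 (AVC E9), LV at day 10 (LV E10) and LV at day 9 (LV E9). No strain, genotype or treatment is given for the embryos, and all groups are untreated tissue as far as the labels go. Whether the 3 arrays of a group came from separate litters or pools is not given either, so the p-values measure only the spread among the arrays, part of which may be technical. A member was identified by its symbol in the platform's probe annotation and represented by the probe that was brightest on average over the 12 arrays. By this rule 9 of the 10 members had a probe, among 19057 genes in all. H19, the maternal non-coding RNA that neighbours Igf2, had no probe under its symbol and is not analysed here.

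Genomic imprinting is the silencing of 1 parental copy of a gene by marks, chiefly DNA methylation at CpG sites, that were set in the egg or the sperm. Imprinted genes are known as a group for their control of embryonic and placental growth. As a rule the paternally expressed ones (Igf2, Mest, Peg3, Dlk1, Plagl1) promote growth, and the maternally expressed ones (Cdkn1c, Grb10 and the non-coding RNAs H19 and Meg3) restrain it or accompany genes that promote it. Nnat, also paternally expressed, encodes neuronatin, a small membrane proteolipid first described in developing brain. The arrays measured the RNA of both parental copies together, so no value here bears on which copy was expressed.

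The stretches before the starts of Nnat, Mest and Peg3 are shown because these had the largest log2 differences between AVC and LV at both ages among the 7 members above background on all arrays. Each is paternally expressed from a promoter that is methylated on the maternal copy. The sequences are the 250 bases upstream of the annotated start, from RefSeq on build GRCm38.p6, written 5′ to 3′ on the gene's strand, with each CpG in capitals. Nnat lies on the plus strand (chr2:157559828-157560077), Mest on the plus strand (chr6:30737800-30738049, the second of 3 starts in the table) and Peg3 on the minus strand (chr7:6730420-6730669).
Nnat: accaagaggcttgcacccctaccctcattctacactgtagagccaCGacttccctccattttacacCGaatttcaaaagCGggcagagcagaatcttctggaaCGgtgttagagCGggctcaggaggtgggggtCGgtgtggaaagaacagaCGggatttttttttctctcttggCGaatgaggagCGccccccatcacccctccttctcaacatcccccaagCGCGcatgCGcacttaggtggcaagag
Mest: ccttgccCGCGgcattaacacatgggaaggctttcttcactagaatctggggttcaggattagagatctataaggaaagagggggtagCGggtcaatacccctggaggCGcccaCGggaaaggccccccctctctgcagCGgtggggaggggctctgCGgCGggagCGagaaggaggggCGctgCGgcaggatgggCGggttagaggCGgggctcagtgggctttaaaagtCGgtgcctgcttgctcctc
Peg3: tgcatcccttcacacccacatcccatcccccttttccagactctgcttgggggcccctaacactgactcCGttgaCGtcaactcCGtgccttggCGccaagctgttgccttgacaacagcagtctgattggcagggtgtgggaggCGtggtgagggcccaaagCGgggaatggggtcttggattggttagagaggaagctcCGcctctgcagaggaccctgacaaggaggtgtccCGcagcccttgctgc

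The Nnat stretch held 12 CpG, the printed Mest stretch 14 and the Peg3 stretch 8, against a median of 6 over the 32851 stretches of the same length in the table. Of all stretches, 33.5% held at least as many CpG as that of Nnat, 29.4% as many as the printed one of Mest and 43.0% as many as that of Peg3. The stretch at the first Mest start held 7 CpG, and 46.3% of all stretches held at least as many. That at the third held 14. The letters GGGGCCCC, which read the same on both strands and are the core of the site bound by the zinc finger factor Plagl1, itself a member, were found in 1 of 15 stretches of the 8 members with an entry, that of Peg3, as can be read in the letters printed above. They were found in 0.889% of all stretches. Such a match describes letters and is not a binding site.

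The levels were deposited as intensities, in arbitrary units on a linear scale. Judged from the values themselves, they were background subtracted and scaled to the same mean on every array. The background limit of an array was set at the size of its most negative value, which ranged from 22.4 to 29.6, and signals over it were taken as above background. By this rule 7 members were above background on all 12 arrays, as were 8340 of the 19057 genes, and 2 members, Meg3 and Plagl1, were above it on no array. Markers of the AVC, among them Tbx2, Tbx3, Msx1 and Wnt2, summed to 9951 to 11860 on the 6 AVC arrays and 1343 to 2105 on the 6 LV arrays, and 8 of 10 of them were higher in the AVC at E10 and 6 of 10 at E9. Chamber myocardium markers summed to 32908 to 45788 in the AVC and 75000 to 82514 in the LV, and 3 of 14 of them were lower in the AVC at E10 (Nppa, Nppb and Cited1) and 2 of 14 at E9 (Nppa and Irx2). The marker sums thus stood in the order of the tissue labels, but single markers did not all do so. Both lists hold genes that the study named as enriched in its own AVC or chamber arrays. Among them are Cav1, Rspo3, Shisa2 and Wnt2 for the AVC, and Nppa and Irx2 for the chambers. The sums are therefore not an independent check of the labels. The AVC marker Msx2 was above background on no array, and the chamber markers Bmp10 and Irx1 on 1 array each. Tbx5, listed as a chamber marker, read 52.7 to 66.7 on the AVC arrays and 6.06 to 41.8 on the LV arrays, without overlap and against the order of its list. Some arrays stood apart from their group. For LV E10 replicate 1, the correlation across genes with the other arrays of its group averaged 0.933, and its closest array, at 0.969, was LV E9 replicate 2. Likewise the first array of AVC E10 and the second of AVC E9 correlated at 0.979 and were nearest to one another. In such dissected tissue a smaller number of cells of a type and less RNA per cell cannot be told apart.

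Most of the members measured were among the brightest genes on the arrays. Igf2, the fetal insulin-like growth factor, ran from 22215 to 40194 and ranked between 4th and 48th of the 19057 genes. Cdkn1c, which encodes the cyclin-dependent kinase inhibitor p57, ran from 14692 to 27701. Grb10, an adaptor that dampens insulin and IGF receptor signalling, ran from 10332 to 15871, and Mest, an endoplasmic reticulum protein of the hydrolase fold that is widely used as a marker of embryonic mesoderm, from 5230 to 16799. Dlk1, a transmembrane protein with EGF repeats related to the Notch ligands, ran from 1707 to 5967, and Peg3, a large zinc finger protein, from 889 to 4003. Nnat was the dimmest of the 7, at 41.6 to 438. These ranks describe signal, since probes differ in how brightly they report the same amount of RNA, and saturation of the brightest ones was not analysed here.

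**Figure D1:**
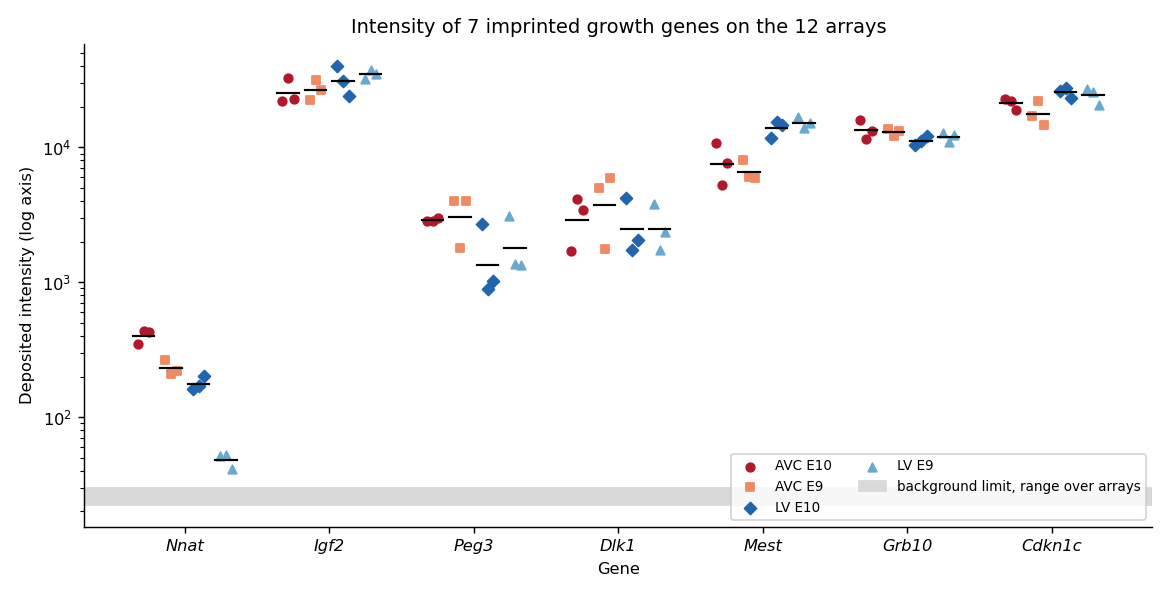
Deposited intensity (log axis) of the 7 members above background on all 12 arrays, by group, with each array as a point and the geometric mean as a bar; the grey band is the range of the background limit, 22.4 to 29.6. Nnat is the only one of the 7 whose 4 groups are all separate, and the AVC points of Mest lie below its LV points.

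Of the 7 members above background on all arrays, Nnat differed most between groups on the log2 scale. Its intensity was 346, 438 and 426 in AVC E10, 264, 210 and 222 in AVC E9, 161, 171 and 200 in LV E10 and 51.2, 52.7 and 41.6 in LV E9. The 4 groups did not overlap and stood in the order AVC E10, AVC E9, LV E10 and LV E9. The mean was 403 ± 49.7 in AVC E10, 232 ± 28.6 in AVC E9, 177 ± 20.6 in LV E10 and 48.5 ± 6.03 in LV E9 (SD, n = 3 each). The difference between AVC E10 and AVC E9 missed the threshold below, and AVC E9 against LV E10 was not one of the comparisons. In LV E9 the signal lay not far over the background limits of those arrays, 24.7 to 28.5.

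Group means of log2 intensity were compared with limma, with p-values adjusted over the 19057 genes and a call at an adjusted p under 0.05. Nnat was 2.27-fold higher in the AVC than in the LV at E10, a log2 difference of 1.18 ± 0.14 (SE) with an adjusted p of 0.00819. At E9 the log2 difference between AVC and LV was 2.26 ± 0.14, or 4.78-fold, with an adjusted p of 6.10e-04. Nnat was the 1 member of 9 called in each of these comparisons, where 2.3% of all genes were called at E10 and 1.02% at E9. The call at E10 was lost with only the groups compared in the fit (adjusted p = 0.0802) and with the mean over all probes of Nnat, some of them at background (0.86, adjusted p = 0.382). It was kept when any 1 array was left out, among them replicate 1 of LV E10 (1.12, adjusted p = 0.0145).

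On its representative probe, Nnat was 3.66-fold higher in the LV at E10 than at E9. The log2 difference was 1.87 ± 0.14, with an adjusted p of 0.00162. Nnat was again the 1 member of 9 called, beside 2.37% of all genes. The call was lost with the mean over all Nnat probes (1.16, adjusted p = 0.152). In the AVC the difference between E10 and E9 was 0.80 ± 0.14, or 1.74-fold. The arrays did not overlap, but the adjusted p of 0.0575 missed the threshold, and 0 of 9 members were called, beside 0.551% of all genes. At an unadjusted p under 0.05 there was 1 member (Nnat), beside 12.5% of all genes. Leaving out 1 array moved the Nnat difference to an adjusted p of 0.0233 (without replicate 1 of AVC E10) or 0.0469 (without replicate 1 of LV E10). The difference between the E10 and the E9 tissue effects was -1.07 ± 0.20 in log2, with an unadjusted p of 5.51e-04 and an adjusted p of 0.350, so a change of the tissue difference with age was not called. In that interaction 0 of 9 members were called by limma, beside 0.0315% of all genes, and 1 (Nnat) had an unadjusted p under 0.05, beside 4.71% of all genes.

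**Figure D2:**
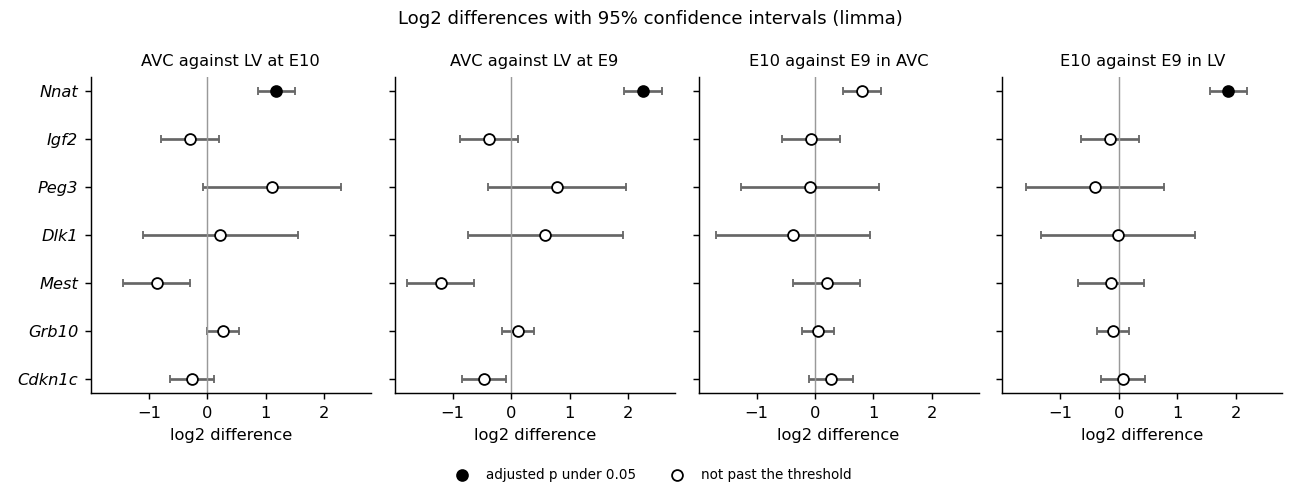
Log2 differences (limma, x axis) with 95% confidence intervals for the 7 members in 4 comparisons; filled circles passed an adjusted p of 0.05 and open circles did not. The filled circles are those of Nnat in AVC against LV at both ages and in E10 against E9 in LV.

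Nnat has 3 further probes, which were dimmer. The second was above background on 9 arrays and read 106, 131 and 111 in AVC E10, 75.7, 86.5 and 74.5 in AVC E9, 23.6, 62.8 and 65.7 in LV E10 and 28.2, 4.61 and 16.3 in LV E9. The third was above background on 10 arrays and read 75.4, 111 and 77.6 in AVC E10, 112, 42.5 and 76.3 in AVC E9, 20.8, 34.9 and 25.3 in LV E10 and 29.1, 15.8 and 30.3 in LV E9. The arrays not above background were all LV arrays: replicate 1 of LV E10 and replicate 2 of LV E9 on both probes, and also replicate 3 of LV E9 on the second. On both probes every AVC array read higher than every LV array of the same age, but the LV side was measured only in part, so no fold is given. None of these differences between AVC and LV passed after adjustment over the 45281 probes. LV E10 and LV E9 overlapped on both probes, unlike on the representative one. The fourth probe was above background on no array.

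Some marker lists of other cell types moved with Nnat in part. Mesenchyme markers (9 measured, among them Twist1, Pdgfra, Col3a1 and Snai1) summed to 3934 to 6710 in AVC E10, 2078 to 2228 in AVC E9, 1385 to 1818 in LV E10 and 777 to 1542 in LV E9. The AVC sums lay above the LV sums at both ages, and 3 of 9 (Twist1, Pdgfra and Snai1) were higher in the AVC at E10 and at E9. Between ages 1 of 9, Col3a1, was higher at E10 in the AVC and 0 of 9 were called in the LV, where the sums overlapped and 3 of 9 had an unadjusted p under 0.05.

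Neural markers (11 measured) summed to 629 to 727 in AVC E10, 584 to 711 in AVC E9, 407 to 534 in LV E10 and 477 to 495 in LV E9, most of it from Gap43. These sums separated AVC from LV at both ages and overlapped between ages in both tissues. Of the neural markers 1, Elavl4, was called, higher in the AVC at E10, and Sox1, Sox2, Elavl3, Neurog1 and Neurod1 were above background on no array. Epicardium markers (6 measured), led by Upk3b and Tcf21, summed to 4067 to 4956 in AVC E10, 661 to 980 in AVC E9, 2274 to 5993 in LV E10 and 408 to 853 in LV E9. These separated the ages in both tissues and overlapped between AVC and LV at both ages, and 2 of 6, Upk3b and Tcf21, were called, higher at E10 in the LV. Endocardium and endothelium markers (8 measured, with Kdr above background on no array) summed to 5358 to 6575 in AVC E10, 2860 to 4379 in AVC E9, 5223 to 6977 in LV E10 and 3335 to 3840 in LV E9. They too separated the ages in both tissues and not the tissues, with Pecam1 called higher at E10 in the LV (adjusted p = 0.0437) and Nfatc1 higher in the AVC at E10 (adjusted p = 0.0138). The part of these cell types in the Nnat result was not tested.

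Mest differed in the opposite direction, with AVC values below LV values. Its representative probe read 10814, 5230 and 7728 in AVC E10 and 11811, 15386 and 14569 in LV E10. At E9 it read 8044, 6018 and 5945 in the AVC and 16799, 13812 and 15165 in the LV. No AVC array reached any LV array of either age. The log2 difference of AVC against LV was -0.87 ± 0.25 at E10 (adjusted p = 0.139) and -1.20 ± 0.25 at E9 (adjusted p = 0.0727), so by this probe it was not called.

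The other 2 Mest probes were dimmer and had smaller standard errors. The second probe read 5471, 3909 and 4944 in AVC E10 against 8425, 8778 and 10566 in LV E10, and 4158, 3111 and 3965 in AVC E9 against 10846, 9059 and 10573 in LV E9. The third read 2804, 1929 and 2308 in AVC E10 against 4047, 4041 and 5289 in LV E10, and 2049, 1572 and 1924 in AVC E9 against 4805, 4197 and 5112 in LV E9. On each, every AVC array lay below every LV array. At E10 the log2 difference was -0.96 on the second probe and -0.93 on the third, with adjusted p of 0.0364 and 0.0493 over all 45281 probes. At E9 it was -1.45 and -1.35, with adjusted p of 0.00998 and 0.0190. With the mean of the 3 probes as the gene's value, a setting chosen after the data were seen, Mest was called lower in the AVC at E10 (-0.92, adjusted p = 0.0399) and at E9 (-1.33, adjusted p = 0.0165). Under the planned mean over all probes of each gene, which holds the same Mest values, Mest was called at E9 but not at E10. With the representative probe it was also called at E9 without replicate 1 of AVC E10 (adjusted p = 0.0382) or replicate 2 of AVC E10 (0.0408). Between ages Mest differed by 0.20 in the AVC and -0.14 in the LV, with overlapping groups and no call. The summed chamber myocardium markers stood in the same order of tissues, and erythroid markers summed to 106440 to 139457 in AVC E10 and 109969 to 170928 in LV E10, which overlap, and to 108671 to 123695 in AVC E9 and 131741 to 160397 in LV E9, which do not. Their part in the Mest values was not tested.

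**Figure D3:**
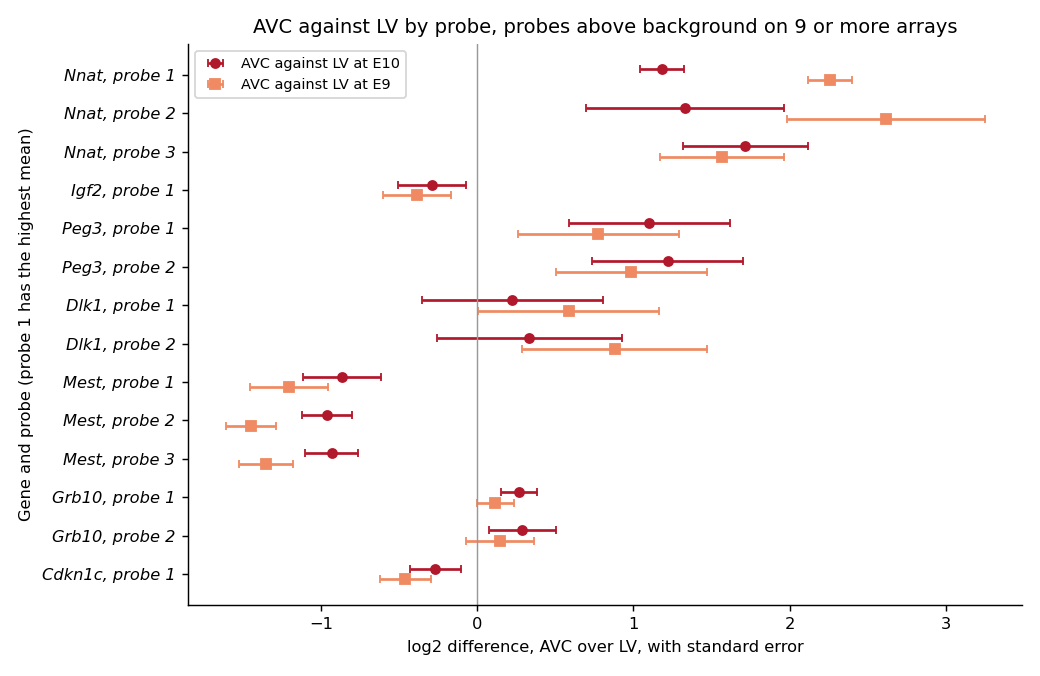
Log2 difference of AVC against LV (x axis, with its standard error) for every member probe above background on 9 or more arrays, at E10 (circles) and E9 (squares); probe 1 is the representative one. The 3 probes each of Nnat and Mest lie on opposite sides of 0 at both ages; probes 2 and 3 of Nnat were not above background on 3 and 2 LV arrays, so their positions are uncertain.

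Peg3 and Dlk1 varied widely within groups, and neither was called in any comparison. Peg3 read 2829, 2861 and 2981 in AVC E10 and 2698, 889 and 1016 in LV E10, with no overlap, and a log2 difference of 1.10 ± 0.52 (adjusted p = 0.404). At E9 it read 4003, 1788 and 3997 in the AVC and 3109, 1364 and 1343 in the LV, which overlap, with a difference of 0.78 ± 0.52. The 95% confidence intervals, -0.08 to 2.28 at E10 and -0.40 to 1.96 at E9, include both 0 and differences of the size seen for Nnat at E10. Without replicate 1 of LV E10 the E10 difference was 1.60, with an adjusted p of 0.111.

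Dlk1 read 1707, 4130 and 3423 in AVC E10 and 4195, 1736 and 2075 in LV E10. At E9 it read 4999, 1777 and 5967 in the AVC and 3812, 1739 and 2360 in the LV. The groups overlapped in every comparison, and the difference of AVC against LV was 0.23 ± 0.58 at E10 and 0.59 ± 0.58 at E9. Leaving out 1 array at a time took the E10 value over a range of -0.03 to 0.61, so it has no settled sign.

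The within-group SD of log2 intensity was 0.73 for Dlk1 and 0.65 for Peg3, above 97.7% and 96.5% of the 8340 genes above background on all arrays, whose median was 0.26. It was 0.18 for Nnat and 0.15 for Grb10, in the lower part of that range. The high and low arrays were largely shared: in AVC E9 both genes were low on replicate 2, and in both LV groups both were highest on replicate 1. They differed in AVC E10, where Dlk1 was lowest on replicate 1 and the Peg3 arrays lay close together. The second probe of each gene was likewise lowest on replicate 2 of AVC E9, with 428, 194 and 424 for Peg3 and 638, 217 and 786 for Dlk1, and highest on replicate 1 of both LV groups. As listed above, the arrays that stood apart over all genes are also replicate 1 of LV E10, replicate 2 of AVC E9 and, for the AVC at E10, replicate 1. Replicate 1 of LV E9, highest for both genes in its group, did not stand apart. Its correlation with the other arrays of its group averaged 0.986. Endoderm and hepatic markers (12 measured) summed to 299, 1402 and 872 in AVC E10 and 504, 853 and 470 in AVC E9. In the LV they summed to 2993, 639 and 201 at E10 and 588, 351 and 351 at E9. Their highest array was that of Dlk1 in AVC E10 and in both LV groups, but in AVC E9 it was the lowest of Dlk1. Their part in the Dlk1 values was not tested.

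**Figure D4:**
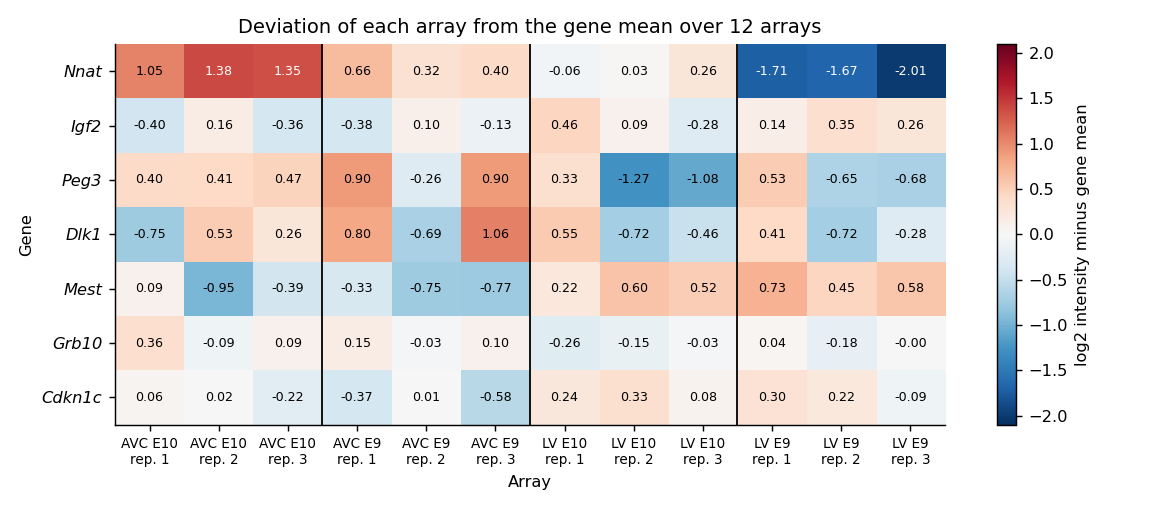
Log2 intensity of 7 members on each of the 12 arrays, minus the gene's mean over the arrays (colour and printed value). Nnat runs from 1.38 in AVC E10 to -2.01 in LV E9, and Peg3 and Dlk1 share low values on replicate 2 of AVC E9.

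Igf2, Cdkn1c and Grb10 were not called in any comparison. Igf2 read 22215, 32580 and 22714 in AVC E10 and 40194, 31054 and 24109 in LV E10, and at E9 22524, 31346 and 26751 in the AVC and 32125, 37297 and 34960 in the LV. The E9 groups did not overlap, but the log2 difference of -0.38 ± 0.22 did not pass the test (adjusted p = 0.614). At E10 it was -0.29 ± 0.22, and between ages it was -0.07 in the AVC and -0.16 in the LV. The 95% interval ran from -0.88 to 0.11 at E9 and from -0.79 to 0.21 at E10.

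Cdkn1c read 22879, 22204 and 18857 in AVC E10 and 26003, 27701 and 23213 in LV E10, which do not overlap, with a difference of -0.27 ± 0.16 (adjusted p = 0.573). At E9 it read 17006, 22072 and 14692 in the AVC and 27103, 25604 and 20621 in the LV, and the difference was -0.46 ± 0.16, with an unadjusted p of 0.0224 and an adjusted p of 0.301. Grb10 read 15871, 11638 and 13200 in AVC E10 and 10332, 11149 and 12147 in LV E10, a difference of 0.27 ± 0.12 (adjusted p = 0.361). At E9 the Grb10 groups overlapped, with a difference of 0.12 ± 0.12. Of the 7 members, 4 had AVC and LV groups that did not overlap at E10 (Nnat, Peg3, Mest and Cdkn1c) and 3 at E9 (Nnat, Igf2 and Mest), against 24.5% and 27% of the genes above background on all arrays. Between ages 1 of the 7 did not overlap in the AVC and 1 in the LV, Nnat each time, against 23.2% and 34.1%.

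Meg3, the maternal non-coding RNA of the Dlk1 domain, read 19.1 at most on the brightest of its 3 probes, and Plagl1, the zinc finger factor, read 9.44 at most on the brightest of its 3. Both are within the background, so no fold is given, and low expression cannot be told apart from a probe that reports poorly.

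The median log2 difference of the 7 members was 0.23 for AVC against LV at E10 and 0.12 at E9, beside 0.16 and 0.06 over the 8340 genes above background on all arrays. Between E10 and E9 it was 0.05 in the AVC and -0.10 in the LV, beside -0.01 and -0.11. The median of the members thus lay near that of the other genes. A median does not show differences of opposite sign, such as those of Nnat and Mest. Over the 12 arrays, the closest pair of members was Igf2 and Cdkn1c, whose centred log2 values differed by a root mean square of 0.27, and the farthest of the 21 pairs was Nnat and Mest, at 1.60. Peg3 and Dlk1 were the fourth closest pair, at 0.46. This measure is also small for genes that each vary little over the arrays.

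The genes most like each member were found by the same measure among those detected on all 12 arrays. The closest to Nnat were Sox4, a transcription factor of the Sox family, at 0.31, 6330403K07Rik at 0.32 and Rsph9 at 0.36, beside a median of 1.15 over all those genes. The closest to Mest were Pxylp1 at 0.21, Arhgef3 at 0.22 and Lgi2 at 0.25. The closest to Peg3 were Fam102b, Thoc2 and Tenm3, at 0.27 to 0.29, and to Dlk1 Rab15, Lrig3 and Nrbp2, at 0.28 to 0.33. The closest to Igf2 were Eef1a1, Rplp1 and Rpl41, genes of the translation machinery, at 0.08 to 0.10, and to Grb10 Sugp1, Ctnna1 and Acly, at 0.07 to 0.08. The closest to Cdkn1c were Hbb-bh1, an embryonic globin, at 0.14, Etfa at 0.15 and Tomm34 at 0.16. The median over all those genes was 0.70 for Mest, 0.72 for Peg3 and 0.68 for Dlk1. It was 0.47 for Igf2, 0.32 for Grb10 and 0.46 for Cdkn1c, so the values of different members are not on a common footing.

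Of 45 other imprinted genes, 40 were measured, 30 of them above background on at least 1 array, and 0 were called for AVC against LV at either age or for E10 against E9 in the AVC by limma. At an unadjusted p under 0.05 there were 7 of the 40 for AVC against LV at E10, beside 13.9% of all genes, 5 at E9, beside 11.5%, and 5 for age in the AVC, beside 12.5%. In the LV, 2 of the 40 were higher at E10 than at E9 and 1 was lower, beside 2.37% of all genes called. At an unadjusted p under 0.05 there were 11 of the 40, beside 19.6% of all genes. Dcn, the matrix proteoglycan decorin, read 1164, 3076 and 3048 in LV E10 and 317, 143 and 54.9 in LV E9, a log2 difference of 4.03 (adjusted p = 0.0334). Gnas, the stimulatory G protein subunit, read 2420, 2629 and 2642 in LV E10 and 1960, 1960 and 1487 in LV E9, a difference of 0.52 (adjusted p = 0.0480). Snurf, of the Prader-Willi domain, read 2822, 2634 and 2719 in LV E10 and 3942, 3900 and 4103 in LV E9, a difference of -0.55 (adjusted p = 0.0355).

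Neighbours of members in their imprinted domains were picked from that list after their values were seen. Blcap, in whose intron Nnat lies, read 479, 517 and 514 in AVC E10 and 298, 430 and 388 in LV E10, a difference of 0.45 (adjusted p = 0.145). At E9 Blcap read 566, 453 and 525 in the AVC and 416, 381 and 420 in the LV, a difference of 0.34 (adjusted p = 0.354). AVC and LV arrays of Blcap thus did not overlap at either age, and its difference between E10 and E9 was -0.03 in the AVC and -0.14 in the LV, beside 0.80 and 1.87 for Nnat. Copg2, which overlaps Mest on the opposite strand, differed by -0.02 at E10 and 0.30 at E9 (adjusted p = 1 and 0.707), beside -0.87 and -1.20 for Mest. Usp29, beside Peg3, was above background on 8 arrays but on 0 of 3 in LV E10, so no difference is given at E10. At E9, where 2 of 3 AVC arrays were above background, it differed by -0.49, beside 0.78 for Peg3, with no call. Some other neighbours differed more in size than their member at 1 age and less at the other, with no call. In places their sign was opposite. Ddc, beside Grb10, differed by -0.51 at E10 and 0.03 at E9, beside 0.27 and 0.12 for Grb10, and Phlda2, in the domain of Cdkn1c, by 0.04 and 0.64, beside -0.27 and -0.46 for Cdkn1c. Cd81 and Tssc4, also in that domain, differed less than Cdkn1c at both ages. Cd81 differed by -0.02 at E10 and -0.04 at E9, and Tssc4 by -0.01 and 0.02.

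In the pathway of Igf2, 17 of 20 genes were measured and 0 were called in any of the 5 contrasts by limma. At an unadjusted p under 0.05 there were 0 of the 17 for AVC against LV at E9, beside 11.5% of all genes, and 3 at E10, beside 13.9%. There were 3 for age in the AVC, beside 12.5%, 3 for age in the LV, beside 19.6%, and 2 in the interaction, beside 4.71%. Igf1r, the signalling receptor, read 435, 393 and 329 in AVC E10 and 456, 174 and 227 in LV E10, and Igf2r, the imprinted receptor that clears Igf2, read 2538, 2082 and 1755 in AVC E10 and 2814, 1179 and 1582 in LV E10. The groups overlapped for both. Igf1, the second ligand, read 295, 616 and 518 in AVC E10 and 118, 157 and 176 in LV E10, which do not overlap, a difference of 1.62 (adjusted p = 0.0900). Of the Notch ligands and receptors, the relatives of Dlk1, 9 of 10 were measured and 1, Notch3, was called, for AVC against LV at both ages. Of all genes, 2.3% were called at E10 and 1.02% at E9. Notch3 read 180.5, 191 and 178 in AVC E10 and 51.8, 44.8 and 65.4 in LV E10, a difference of 1.78 (adjusted p = 0.00187). It was 0.88 higher in the AVC at E9 (adjusted p = 0.0366). Notch1 and Jag1 also did not overlap at E10, with differences of 0.77 and 0.96, but were not called (adjusted p = 0.206 and 0.380). Dll1 and Notch4 overlapped at E10, with differences of -0.23 and -0.22. Of the 6 other cyclin-dependent kinase inhibitors, relatives of Cdkn1c, 0 were called in any contrast by limma, with 5 of the 6 at an unadjusted p under 0.05 for E10 against E9 in the LV, beside 19.6% of all genes, and 0 to 2 in the other contrasts. Of those 5, Cdkn2b was above background on no array. Cdkn1a, which encodes p21, read 302, 216 and 208 in LV E10 and 194, 166 and 148 in LV E9, which do not overlap, a difference of 0.50 (adjusted p = 0.125).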

How the data were processed

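Total RNA of dissected AVC and LV was measured on 12 Illumina mouse bead arrays, 3 in each of 4 groups. The intensity values deposited by the authors were linear, with a mean of 386 on each array and 34.7% of values below 0, and quantiles differed between arrays. Background subtraction and scaling to that mean were inferred from these values. No source used here gives the program behind these values. Genespring GX and a filter on signals below background are named in the study's methods, for its comparisons. Of 45281 probes, 34885 had 1 listed gene symbol, 18 had several and 10378 had none, and probes of the last 2 kinds name no gene here. Values under 1 (36.8%) were set to 1 before log2. Group means were fitted over all probes with limma 3.58.1 in R 4.3.3, all 4 groups together, with two-sided p-values adjusted by Benjamini-Hochberg over 19057 genes. The code was tested on simulated data. All members, list genes called, and for each member the 3 genes of most similar profile are named. The members, lists and tests were chosen with earlier results of these data known. Promoter sequences came from RefSeq. The number of arrays limits the precision.

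Alternatives were quantile normalization, a floor of 16, an offset of 50, only genes above background in a group, an intensity trend, only the groups compared, the replicate number as a block, array quality weights, the mean over a gene's probes, 1.5 times the background limit and leaving out each array.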

Additional observations from a re-analysis of the deposited data

How the results depend on the processing

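Nnat kept its call for AVC against LV at E9 under all alternatives (log2 1.51 to 2.36). At E10 it lost it with only the groups compared in the fit (1.18, adjusted p = 0.0802; 0 members called) and with the mean over all its probes (0.86, adjusted p = 0.382), and for E10 against E9 in the LV with that mean (1.16, adjusted p = 0.152), which holds probes at background. For E10 against E9 in the AVC, 1 member, Nnat, was called with a floor of 16, an offset of 50 or only genes above background in a group, and with the mean over all probes its difference was -0.021. At E9, 2 members, Nnat and Mest, were called for AVC against LV with only genes above background, with the mean over all probes and, in a setting added after the data were seen, with the mean over probes above background on all arrays, which also called 2 at E10. Quality weights, whose estimation stopped before converging, called 2 members at E9, 7 at E10, 1 for age in the AVC, 3 for age in the LV and 1 in the interaction, and gave the highest counts of all genes. Their calls at E10 and for age in the LV included Meg3 or Plagl1 or both, which were above background on no array. Leaving out 1 array gave 1 to 2 members at E9, 1 at E10, 0 to 1 for age in the AVC, 1 for age in the LV and 0 in the interaction. The replicate number as a block left the count of members at 1, 1, 0, 1 and 0 in the 5 contrasts and changed no member's call; it called 134 genes for AVC against LV at E9 and 794 for age in the LV. Deviations of same-numbered arrays from their group means correlated between -0.32 and 0.28, over 0.1 in 5 of 12 pairs, so the numbers were not taken to pair samples.

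Over these settings, arrays left out aside, the count of genes called ran from 83 to 1217 for AVC against LV at E9 (195 as reported), 72 to 6047 at E10 (438), 21 to 3733 for age in the AVC (105), 75 to 6685 for age in the LV (452) and 2 to 478 in the interaction (6). Leaving out 1 array gave 59 to 422, 97 to 730, 25 to 465, 54 to 2630 and 10 to 43.

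No difference was called in a setting that changed its sign. For Nnat, E10 against E9 in the AVC went from 0.80 to -0.021 with the mean over all probes, as given above. With quantile normalization, age in the LV gave 0.040 for Dlk1 and -0.026 for Cdkn1c. With weights, Grb10 gave -0.031 for age in the AVC and Mest 0.0073 for age in the LV. With the mean over all probes, Peg3 gave 0.059 for age in the AVC, and Dlk1 0.11 and Grb10 0.046 for age in the LV; with the mean over probes above background these were 0.031, 0.11 and 0.069. Leaving out 1 array, age in the AVC ran from -0.25 to 0.051 for Igf2, -0.47 to 0.11 for Peg3, -0.92 to 0.0013 for Dlk1, -0.054 to 0.47 for Mest and -0.069 to 0.15 for Grb10. Age in the LV ran from -0.34 to 0.025 for Igf2, -0.40 to 0.29 for Dlk1 and -0.043 to 0.15 for Cdkn1c. AVC against LV at E10 ran from -0.032 to 0.61 for Dlk1, and the interaction from -0.091 to 0.28 for Igf2, -0.074 to 0.83 for Peg3 and -0.90 to 0.020 for Dlk1. At 1.5 times the background limit Nnat was above it on 11 of 12 arrays, the other 6 members on 12 and Meg3 and Plagl1 on 0. The causes were not tested.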
